A study of Homo sapiens with 26 samples.

Results

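MALAT1 and 9 other long non-coding RNA genes, NEAT1, DLEU1, DLEU2, GAS5, SNHG1, SNHG3, SNHG12, TUG1 and KCNQ1OT1, were followed over 26 microarrays of MDA-MB-468 cells, a long-used human line of basal, triple-negative breast cancer. The 10 genes were chosen by name from the deposited expression values, with changes between these treatments already known, the fall of MALAT1 in control IgG cultures relative to DMSO cultures among them. Which other values led to the choice is not recorded, so every change below is a description of these arrays and is no independent test of them. The array held 32 probe sets annotated to exactly 1 of these genes, out of 54613 probe sets without controls. MALAT1 had 12 of them, DLEU2 7, TUG1 6, KCNQ1OT1 5, and DLEU1 and GAS5 1 each. NEAT1, SNHG1, SNHG3 and SNHG12 had 0, because their probe sets are annotated jointly with small RNA genes, so 6 of the 10 genes could be read directly.

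The 2 experiments asked what NOTCH3 antibodies, a Notch ligand and a Notch inhibitor do to gene expression. In the agonism experiment (18 arrays, 6 groups of 3), all cultures except the DMSO group first received 5 µM DAPT, an inhibitor of the gamma-secretase that releases the active part of Notch receptors, for 16 h. All cultures, the DMSO group included, were then washed and kept in plain medium for 2 h. They then received 20 µg/ml of the anti-NOTCH3 antibody A13, beads carrying JAG1-Fc, in which a ligand of Notch is fused to an antibody Fc part, beads carrying Fc alone, 20 µg/ml of a control IgG (anti-gD), or 5 µM DAPT again, while the DMSO group had 0.05% DMSO at both stages. DAPT and DMSO were renewed after 22 h, and the sample labels give harvest at 24 h. In the antagonism experiment (8 arrays, 3 groups), cells received, 40 h after plating, 10 µg/ml of the anti-NOTCH3 antibody A4 with 0.05% DMSO (2 arrays), 10 µg/ml control IgG with 5 µM DAPT (3 arrays) or 10 µg/ml control IgG with 0.05% DMSO (3 arrays), again for 24 h. The label text speaks of a single DMSO plate in the agonism experiment and of no separate cultures elsewhere, so the p-values measure the spread between arrays, which may be technical. Arrays within a group are numbered only to name them.

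MALAT1 is a long, abundant transcript kept in the nucleus, where it gathers at speckles, the bodies rich in splicing factors, and its level has been tied to metastasis in several cancers. NEAT1, its neighbour on the chromosome, is the scaffold of paraspeckles. GAS5 and the SNHG genes are hosts of small nucleolar RNAs: the small RNAs are cut out of their introns, and the joined exons are read by ribosomes and broken down by nonsense-mediated decay. DLEU1 and DLEU2 overlap, on opposite strands, in a region often deleted in leukaemia. TUG1 is a widely expressed long RNA that has been described as a Notch-induced transcript in glioma stem cells, and KCNQ1OT1 is an imprinted antisense RNA that silences neighbouring genes on the paternal chromosome.

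The start regions of MALAT1, DLEU1 and DLEU2 are shown, the 3 genes with most of the calls below, and the last 2 share part of theirs. Windows of 250 bases before and 50 bases after an annotated start came from RefSeq (GRCh38.p14) for 8 of the 10 genes, 10 windows in all. In the DLEU1 window the capitals mark the 227 bases that it shares with the second window of DLEU2, which is read on the other strand, and in the DLEU2 first window they mark the E-box letters CACGTG.
MALAT1 first window (chr11:65497488-65497787, plus strand): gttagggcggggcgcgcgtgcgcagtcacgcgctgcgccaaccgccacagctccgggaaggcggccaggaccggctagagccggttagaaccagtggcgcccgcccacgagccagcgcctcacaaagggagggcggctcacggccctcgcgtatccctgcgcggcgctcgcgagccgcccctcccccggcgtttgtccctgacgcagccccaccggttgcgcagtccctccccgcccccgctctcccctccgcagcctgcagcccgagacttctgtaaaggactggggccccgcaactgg
MALAT1 second window (chr11:65498795-65499094, plus strand): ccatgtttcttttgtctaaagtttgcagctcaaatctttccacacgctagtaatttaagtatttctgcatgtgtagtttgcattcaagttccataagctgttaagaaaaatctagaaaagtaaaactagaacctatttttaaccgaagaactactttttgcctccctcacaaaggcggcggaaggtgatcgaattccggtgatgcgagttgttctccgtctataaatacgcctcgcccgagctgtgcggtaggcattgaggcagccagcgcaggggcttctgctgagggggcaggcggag
DLEU1 window (chr13:50081919-50082218, plus strand): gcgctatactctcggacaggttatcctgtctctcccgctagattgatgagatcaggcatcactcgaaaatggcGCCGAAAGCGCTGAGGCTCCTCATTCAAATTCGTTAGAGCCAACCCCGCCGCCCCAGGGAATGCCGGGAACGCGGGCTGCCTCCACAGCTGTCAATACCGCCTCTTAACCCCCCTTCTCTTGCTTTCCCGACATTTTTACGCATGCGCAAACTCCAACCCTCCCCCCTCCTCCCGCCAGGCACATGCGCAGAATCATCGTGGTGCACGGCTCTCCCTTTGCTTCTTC
DLEU2 first window (chr13:50125492-50125791, minus strand): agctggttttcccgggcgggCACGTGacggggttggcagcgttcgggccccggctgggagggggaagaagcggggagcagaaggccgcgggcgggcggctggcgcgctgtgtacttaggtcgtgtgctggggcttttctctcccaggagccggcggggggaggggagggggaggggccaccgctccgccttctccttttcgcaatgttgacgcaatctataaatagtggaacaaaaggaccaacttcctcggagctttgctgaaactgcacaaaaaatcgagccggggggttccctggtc
CACGTG, the letters of an E-box (the same on both strands), occurred in 2 of the 10 windows, DLEU2's first and TUG1's, and in 7.26% of 35116 RefSeq windows of the same length. GTGGGAA or its complement TTCCCAC, the core letters bound by the Notch partner RBPJ, occurred in 0 of the 10 and in 6.25% of all windows. A match or its absence describes these letters in these windows only. DLEU2 also carries 2 microRNAs with the same seed, shown because 3 probe sets are annotated jointly to DLEU2 and one of these microRNA genes. Capitals mark the seed (bases 2 to 8), and the mature microRNAs were not measured by these arrays.
hsa-miR-16-5p: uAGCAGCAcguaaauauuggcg
hsa-miR-15a-5p: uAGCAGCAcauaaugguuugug

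Values are log2 of the deposited probe set intensities, and the levels of different probe sets cannot be set against each other. Over the 18 agonism arrays the mean log2 level of the 12 MALAT1 probe sets lay between 6.27 (228582_x_at) and 10.94 (1558678_s_at), that of the 7 DLEU2 probe sets between 3.56 and 8.18, that of the 6 TUG1 probe sets between 6.52 and 11.30, and that of the 5 KCNQ1OT1 probe sets between 5.11 and 8.13. DLEU1 (205677_s_at) averaged 10.27 and GAS5 (1560402_at) 7.66. Array medians lay between 6.83 and 6.88 in the agonism experiment and between 7.60 and 7.65 in the antagonism experiment, so levels are compared only within an experiment. The epithelial and basal markers EPCAM, KRT5, KRT8, KRT18 and EGFR stood above at least 98.2% of probe sets in both experiments. KRT14 was above 79.9% in the agonism arrays. The receptor genes ERBB2, ESR1 and PGR, planned as low markers of this triple-negative line, were above 83.7%, 68.9% and 31.2% there, ERBB2 thus above KRT14. Markers of other cell types ran from the leukocyte gene PTPRC, above 15.4%, to the monocyte gene CD14, above 87.2%. Among them COL1A1 was above 84.3% and PECAM1 above 77.2%. What such signals contribute was not tested. Such a bulk measurement cannot tell fewer cells making a transcript from less of it per cell.

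**Figure D1:**
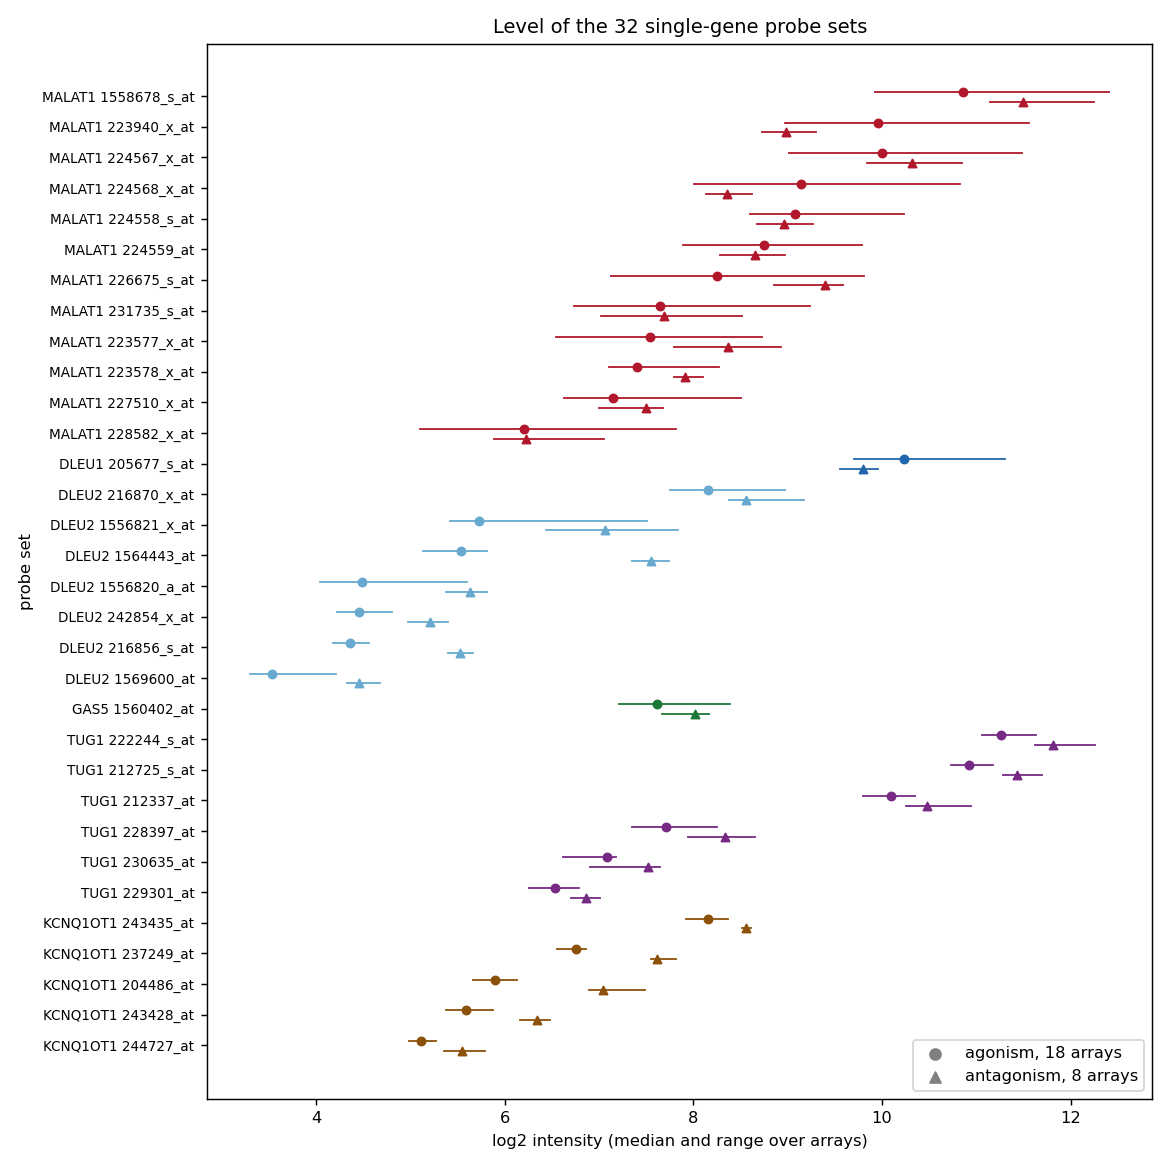
Log2 intensity of each of the 32 single-gene probe sets, as the median (circle, 18 agonism arrays; triangle, 8 antagonism arrays) and the range over arrays (line), coloured by gene. MALAT1 probe sets have mean levels between 6.27 and 10.94 and wide ranges, while those of KCNQ1OT1 are narrow.

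Before the groups are compared, the arrays that stood apart in MALAT1 are given. On DMSO array 2 all 12 MALAT1 probe sets lay below their group mean, by a median of -0.60 on the log2 scale, and on JAG1-Fc beads array 2 all 12 lay above it, by 0.54. JAG1-Fc beads array 1 (-0.40) and A13 array 3 (-0.38) had all 12 below, and A13 array 2 had 11 of 12 above (0.38). The 12 probe sets thus rose and fell together between arrays of one treatment: with group means removed, Pearson's r between pairs of them had a median of 0.85 and lay between 0.57 and 0.99 over the 66 pairs and 18 arrays. Over the 8 antagonism arrays the same median was 0.59, and r lay between -0.43 and 0.99. These probe sets share the arrays and are annotated to the same gene, and what each of them reads was not tested. The within-group SD of 1558678_s_at was 0.43 in the agonism experiment, where the median over all probe sets was 0.11 and 19 of 54613 probe sets had a larger one. For the 12 probe sets it lay between 0.22 and 0.48. This spread between arrays of one treatment sets how well MALAT1 differences could be measured here. Other members shared it in part, so their changes are not separate observations. With group means removed, r with 1558678_s_at over the 18 agonism arrays was 0.63 for DLEU1, 0.67 for DLEU2 and 0.79 for TUG1. It was 0.29 for GAS5 and -0.23 for KCNQ1OT1, each at the probe set with the highest level.

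**Figure D2:**
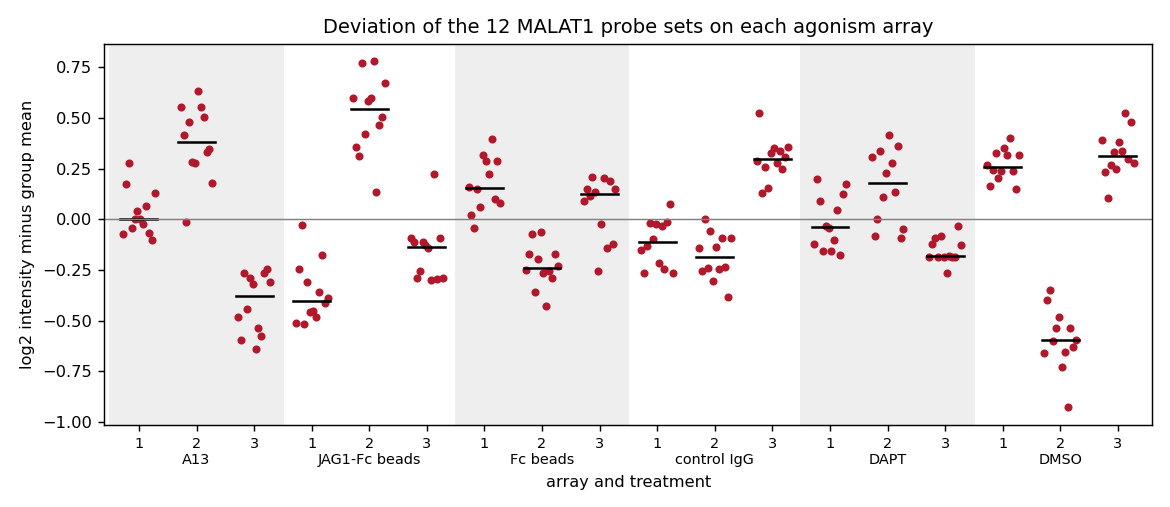
Log2 intensity minus the mean of its group for the 12 MALAT1 probe sets (points) on each of the 18 agonism arrays, numbered within a treatment, with the median per array as a black bar. All 12 points lie below 0 on DMSO array 2 and above 0 on JAG1-Fc beads array 2.

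MALAT1 was lower in control IgG cultures than in DMSO cultures. The former had received DAPT before the washout and IgG after it, and the latter DMSO at both stages and neither DAPT nor IgG. These differences cannot be told apart here. Its probe set with the highest level, 1558678_s_at, read 9.92, 9.93 and 10.36 in control IgG cultures and 12.29, 11.36 and 12.41 in DMSO cultures, with means of 10.07 ± 0.25 and 12.02 ± 0.57 (SD, n = 3 each). Each control IgG array was below each DMSO array. The change was -1.95 ± 0.29 (log2, SE), 3.86-fold lower in control IgG, with a 95% interval of -2.56 to -1.34. The largest change was at 224568_x_at, with 8.22, 8.01 and 8.53 in control IgG and 10.81, 9.84 and 10.83 in DMSO, a difference of -2.24 ± 0.32. Across the 12 MALAT1 probe sets the changes lay between -2.24 and -0.78, 4.73- to 1.72-fold lower in control IgG, with a median of -1.86, and in all 12 the groups did not overlap. Without DMSO array 2 the change of 1558678_s_at was -2.28 and that of 224568_x_at -2.57.

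In this comparison of control IgG with DMSO, 19 of the 32 member probe sets were called lower (limma, adjusted p under 0.05 over all probe sets) and 0 higher, where 19 were lower and 0 higher at an unadjusted p under 0.05. The 19 were the 12 of MALAT1, 4 of DLEU2 and 1 each of DLEU1, GAS5 and TUG1. Over the whole array 11.9% of probe sets were called lower and 11.2% higher, and in 16.1% every control IgG array was below every DMSO array. The unadjusted threshold was passed by 18209 of all 54613 in either direction. The median change of the 32 was -0.76, and that of all probe sets 0.03. The fall of MALAT1 here was known when the genes were chosen, so nothing is read from this count. The calls ran between 17 and 20 of 32 with any 1 array left out, and were 19 with the RNA quality measure described below as a covariate.

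**Figure D3:**
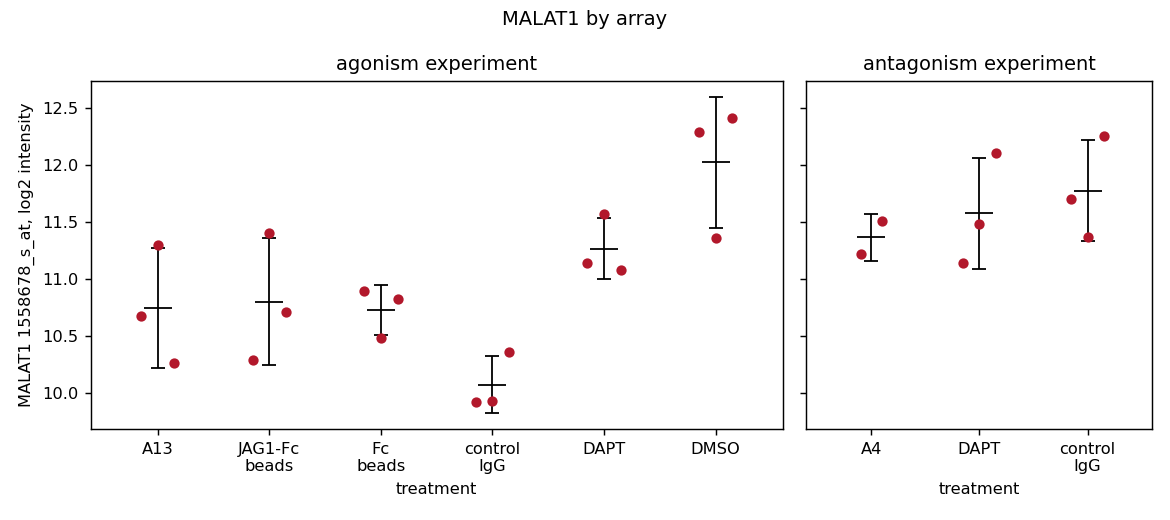
Log2 intensity of the MALAT1 probe set 1558678_s_at on each array (points), with the group mean and SD (black), in the agonism (left) and antagonism (right) experiments. In the agonism experiment control IgG arrays 1 and 2, at 9.92 and 9.93, lie below every array of the other groups, and the DMSO group has the highest mean, 12.02.

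Continued DAPT gave MALAT1 levels between those of the control IgG and the DMSO groups. In DAPT cultures 1558678_s_at read 11.14, 11.57 and 11.08 (mean 11.26 ± 0.27), against the 12.29, 11.36 and 12.41 of DMSO cultures. The groups overlapped, since DAPT array 2 was above DMSO array 2. The change was -0.76 ± 0.29 and did not pass the adjusted threshold (adjusted p = 0.0947). At 224568_x_at the DAPT arrays read 9.32, 9.70 and 9.24 and the DMSO arrays 10.81, 9.84 and 10.83, so that all DAPT arrays were lower, with a change of -1.08 ± 0.32 (adjusted p = 0.0318). All 12 MALAT1 probe sets were lower with DAPT, between -1.08 and -0.56. Of these, 6 were called, and in 6 the groups did not overlap.

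Between DAPT and DMSO, 11 of the 32 member probe sets were called lower and 0 higher, against 6.65% lower and 7.49% higher over the whole array, and 12.3% of all probe sets had every DAPT array below every DMSO array. At an unadjusted p under 0.05, 20 were lower and 0 higher, where 14116 of all 54613 probe sets passed in either direction. The 11 were 6 of MALAT1, 3 of DLEU2, DLEU1 and GAS5. The median change of the 32 was -0.51, and that of all probe sets -0.003. This count rests on single DMSO arrays: it was 19 without DMSO array 2, but 1 without DMSO array 1 and 1 without DMSO array 3, and it was 6 without DAPT array 1 and 3 without DAPT array 3.

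MALAT1 was also lower in control IgG than in continued DAPT cultures. These groups differ both in the return of DAPT after the washout and in the IgG, which cannot be told apart here, and Fc beads were not tested against DAPT. For control IgG against DAPT cultures the change of 1558678_s_at was -1.19 ± 0.29 (adjusted p = 0.0223), 2.28-fold lower in control IgG, with no overlap between the groups. The 6 probe sets called were all MALAT1's: 1558678_s_at, 223577_x_at (-1.04), 223940_x_at (-1.12), 224568_x_at (-1.17), 226675_s_at (-1.11) and 231735_s_at (-1.06). The other 6 MALAT1 probe sets had changes between -1.08 and -0.22, and in 11 of the 12 the groups did not overlap. In all, 6 of 32 member probe sets were lower and 0 higher, where 2.99% of the array was lower, 1.79% was higher and 11.7% did not overlap in this direction. At an unadjusted p under 0.05, 13 were lower and 0 higher, where 9488 of all 54613 probe sets passed in either direction. The count was 0 when control IgG array 1, control IgG array 2 or DAPT array 1 was left out, 1 without DAPT array 2 and 3 without DAPT array 3. The 3 comparisons of DMSO, DAPT and control IgG share arrays, so their changes are not separate observations.

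**Figure D4:**
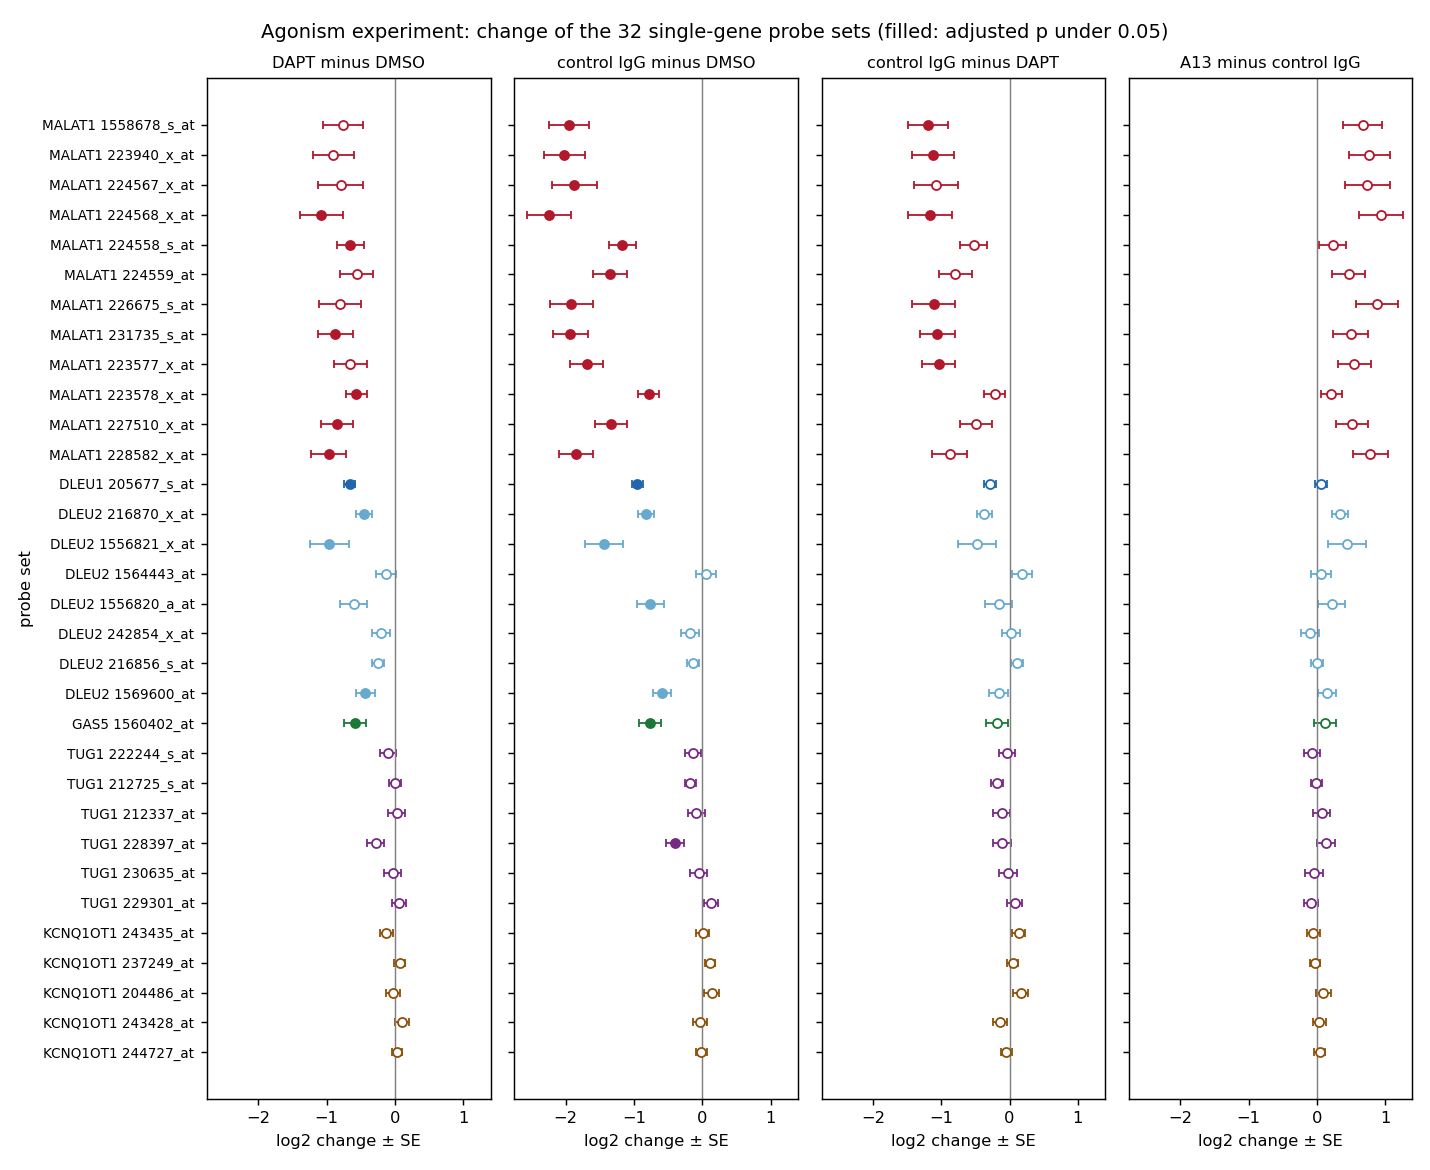
Log2 change ± SE of each of the 32 single-gene probe sets in 4 comparisons of the agonism experiment, filled where the adjusted p was under 0.05. MALAT1 (red) lies left of 0 in the first 3 panels, with 12 of 12 filled for control IgG minus DMSO, and right of 0 without a filled point for A13 minus control IgG.

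The NOTCH3 antibody A13 and the JAG1-Fc beads changed none of the 32 single-gene probe sets past the threshold. Among the jointly annotated ones, described in the closing section, A13 had calls for SNHG1 (1 of 1), SNHG12 (2 of 3) and GAS5 (1 of 4). These were all higher. In A13 cultures 1558678_s_at read 10.67, 11.30 and 10.26, against 9.92, 9.93 and 10.36 in control IgG cultures. A13 arrays 1 and 2 were above all control IgG arrays, and A13 array 3 was within their range. The change was 0.67 ± 0.29 (95% interval 0.06 to 1.28, adjusted p = 0.206), and all 12 MALAT1 probe sets were higher with A13, between 0.21 and 0.94. By limma 0 of the 32 were called in either direction, where 3.6% of the array was higher and 4.24% lower. At an unadjusted p under 0.05, 9 were higher and 0 lower, where 10267 of all 54613 probe sets passed in either direction. Without A13 array 3 the number called was 3, all higher.

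JAG1-Fc bead cultures read 10.29, 11.40 and 10.71 at 1558678_s_at and Fc bead cultures 10.89, 10.48 and 10.82. The JAG1-Fc arrays lay on both sides of the Fc arrays, and the change was 0.07 ± 0.29 (95% interval -0.54 to 0.68). MALAT1 changes lay between -0.07 and 0.39, and 0 of 32 members were called in either direction, adjusted or unadjusted, where 1.27% of the array was higher and 2.09% lower. Unadjusted, 7922 of all 54613 probe sets were under 0.05 in either direction. The difference between the effect of A13 over control IgG and that of JAG1-Fc beads over Fc beads was 0.60 ± 0.41 at 1558678_s_at (95% interval -0.26 to 1.46). For that difference 0 of 32 members were called, with 1 higher and 0 lower at an unadjusted p under 0.05, and 0.0183% of the array was higher and 0.022% lower. Unadjusted, 2561 of all 54613 probe sets were under 0.05 in either direction.

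Fc beads and control IgG, the 2 controls given after washout, differed in DLEU1 among the members. MALAT1 1558678_s_at was 0.66 ± 0.29 higher with Fc beads (adjusted p = 0.391), each Fc bead array being above each control IgG array. This was the largest of the 12 MALAT1 changes, which lay between 0.02 and 0.66, and in 1 of the 12 the groups did not overlap. The share of the whole array without overlap was not counted for this comparison. DLEU1 read 9.74, 9.79 and 9.71 with Fc beads and 10.27, 10.11 and 10.19 with control IgG, with no overlap and a change of -0.44 ± 0.09 (adjusted p = 0.0173). It was the single call of 32, lower, with 0 higher, where 0.134% of the array was lower and 0.762% higher, and 2 members were higher and 1 lower at an unadjusted p under 0.05. That unadjusted threshold was passed by 6265 of all 54613 probe sets in either direction. The call was also lost with only the 2 groups in the fit, with the RNA quality covariate, and with Fc beads array 1, Fc beads array 3, control IgG array 1 or control IgG array 3 left out.

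In the antagonism experiment 0 of the 12 MALAT1 probe sets were called between treatments. The probe set 1558678_s_at read 11.22 and 11.51 with A4, 11.14, 11.48 and 12.10 with DAPT, and 11.70, 11.37 and 12.25 with control IgG. At this probe set the 3 groups overlapped. The change with A4 against control IgG was -0.41 ± 0.30 (95% interval -1.09 to 0.27), and that with DAPT against control IgG was -0.20 ± 0.27 (-0.80 to 0.41). For A4 against control IgG the MALAT1 changes lay between -0.48 and 0.02, and 226675_s_at, with 9.24 and 8.85 in A4 and 9.44, 9.53 and 9.59 in control IgG, was the largest (-0.48, adjusted p = 0.455). For DAPT they lay between -0.20 and 0.22, and for A4 against DAPT between -0.53 and -0.04. The groups did not overlap in 3 of the 12 for A4 against control IgG, 4 for A4 against DAPT and 0 for DAPT against control IgG. The share of the whole array without overlap was not counted in this experiment. The difference of the DAPT effects between the experiments (antagonism minus agonism) was 0.56 ± 0.43 at 1558678_s_at (95% interval -0.33 to 1.46). Over the 12 MALAT1 probe sets it was above 0 in all, between 0.56 and 1.19 with a median of 0.79, and 0 of the 12 were called, where 1.11% of the array was higher and 1.14% lower. The 12 are annotated to 1 gene and share the same arrays. At 228582_x_at, where it was largest, it was 1.19 ± 0.40 (adjusted p = 0.104).

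By limma 0 of 32 members were called in any of these 3 comparisons, in either direction. Over the whole array 0.022% were higher and 0.0201% lower with DAPT than control IgG, 0.00549% higher and 0.011% lower with A4 than control IgG, and 0% in either direction with A4 than DAPT. At an unadjusted p under 0.05, 2 members were higher and 1 lower with DAPT, 1 higher and 3 lower with A4, and 0 higher and 6 lower with A4 than DAPT. In the same order, 5220, 3636 and 4198 of all 54613 probe sets passed it in either direction. Without control IgG array 2 the count for DAPT was 3, with 1 higher and 2 lower. The A4 group had 2 arrays, which limits these intervals.

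DLEU1, a transcript of the leukaemia deletion region, was higher in the DMSO group than in all groups that had received DAPT. Its single probe set read 10.20, 10.27 and 10.29 with A13, 9.70, 9.88 and 9.81 with JAG1-Fc beads, 9.74, 9.79 and 9.71 with Fc beads, 10.27, 10.11 and 10.19 with control IgG, 10.53, 10.52 and 10.38 with DAPT, and 11.21, 10.91 and 11.30 with DMSO. Every array that had received DAPT was below all 3 DMSO arrays. How many of all probe sets have this separation was not counted. For single groups, 12.3% had every DAPT array and 16.1% every control IgG array below every DMSO array. In order of level, DMSO stood above DAPT and DAPT above A13 without overlap. A13 overlapped with control IgG, and both stood above the 2 bead groups, which overlapped with each other. Apart from DAPT below DMSO, the share of the whole array for these steps was not counted. The within-group SD was 0.11, the median of the array. The change of DLEU1 was -0.66 ± 0.09 with DAPT against DMSO (adjusted p = 9.75e-05) and -0.95 ± 0.09 with control IgG against DMSO. Without DMSO array 2 these changes were -0.78 and -1.06, and leaving out any 1 array lost neither call. Control IgG against DAPT was -0.29 ± 0.09 (adjusted p = 0.0676), A13 against control IgG 0.06 ± 0.09, and JAG1-Fc beads against Fc beads 0.05 ± 0.09.

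In the antagonism experiment DLEU1 read 9.55 and 9.63 with A4, 9.89, 9.94 and 9.96 with DAPT, and 9.79, 9.75 and 9.80 with control IgG. The 3 groups did not overlap, but no difference passed the threshold. How many of all probe sets separate in this way was not counted, so nothing is read from the lack of overlap. The change against control IgG was -0.20 ± 0.07 with A4 (adjusted p = 0.692) and 0.15 ± 0.07 with DAPT (adjusted p = 0.536). The DAPT effect on DLEU1 was tested for a difference between the experiments: the change in antagonism minus the change in agonism was 0.81 ± 0.11 (adjusted p = 0.001301). This was the single call among the 32 for that difference, higher, with 0 lower, and 13 members were higher and 0 lower at an unadjusted p under 0.05. That unadjusted threshold was passed by 9777 of all 54613 probe sets in either direction. The call held with each of 12 arrays left out in turn but was lost with only the 4 compared groups in the fit. The experiments also differ in time since plating, washout and the control, and these cannot be told apart.

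DLEU2 has an alternative start on the opposite strand of the window shown for DLEU1, and its 7 probe sets did not behave alike. The one with the highest level, 216870_x_at, read 8.33, 8.29 and 8.22 with A13, 7.76, 8.08 and 7.83 with JAG1-Fc beads, 8.03, 7.89 and 7.75 with Fc beads, 7.78, 7.96 and 8.06 with control IgG, 8.40, 8.22 and 8.29 with DAPT, and 8.83, 8.48 and 8.97 with DMSO. DMSO arrays were above all others, a separation not counted over the whole array. The change with DAPT against DMSO was -0.46 ± 0.12 (adjusted p = 0.0122), and with control IgG against DMSO -0.82 ± 0.12. The probe set that changed most, 1556821_x_at, read 5.42, 5.47 and 5.71 with control IgG, 6.00, 6.37 and 5.66 with DAPT, and 7.51, 6.02 and 7.37 with DMSO, so that DMSO array 2 fell inside the DAPT range. Its change against DMSO was -1.43 ± 0.28 with control IgG and -0.96 ± 0.28 with DAPT, and -1.91 and -1.43 without DMSO array 2. Of the 7, 4 were called lower with control IgG against DMSO and 3 with DAPT against DMSO, and the other changes included 0.06 ± 0.15 for 1564443_at with control IgG. Over the whole array 11.9% and 6.65% were called lower. Of those called, only 216870_x_at lay above the median level. In the agonism arrays 1556821_x_at was above 32% of probe sets and 1569600_at above 2.5%. The last, 1556820_a_at, was above 12.3% and called with control IgG only. Pearson's r between pairs of DLEU2 probe sets over the 18 arrays had a median of 0.31 and lay between -0.39 and 0.87, against a median of 0.94 and a lowest value of 0.83 for MALAT1, where the probe sets of a gene share arrays and groups. In the antagonism arrays 216870_x_at read 8.62 and 8.49 with A4, 8.38, 8.42 and 8.77 with DAPT, and 8.99, 8.45 and 9.17 with control IgG, and the groups overlapped. There 1556821_x_at read 7.24 and 7.28 with A4, 6.79, 6.89 and 6.68 with DAPT, and 7.29, 6.44 and 7.84 with control IgG.

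GAS5, the growth arrest host of small nucleolar RNAs, has a single probe set of its own. It read 7.77, 7.49 and 7.49 with A13, 7.43, 7.73 and 7.28 with JAG1-Fc beads, 7.72, 7.40 and 7.65 with Fc beads, 7.34, 7.46 and 7.58 with control IgG, 7.92, 7.21 and 7.79 with DAPT, and 8.39, 7.96 and 8.30 with DMSO. The DMSO arrays were above all others, and the remaining 5 groups overlapped. How many of all probe sets separate like this was not counted. The change of this probe set was -0.58 ± 0.16 with DAPT against DMSO (adjusted p = 0.0221), a call lost with 3 of the 6 arrays left out in turn. With control IgG against DMSO it was -0.76 ± 0.16. It does not stand for GAS5 as a whole. Of 4 probe sets annotated to GAS5 with small nucleolar RNA genes, 2 were called lower with control IgG against DMSO, with changes between -1.41 and 0.01. For the single-gene probe set, control IgG against DAPT was -0.18 ± 0.16, and A13 against control IgG 0.13 ± 0.16. Of the 4 joint probe sets, 2 were called higher and 0 lower in the former comparison, and 1 higher and 0 lower in the latter. Over the whole array 1.79% and 3.6% were called higher. In the antagonism experiment the single-gene probe set read 7.78 and 8.05 with A4, 8.06, 7.98 and 8.17 with DAPT, and 7.78, 7.67 and 8.15 with control IgG, with overlapping groups. The DAPT effect there minus that in agonism was 0.78 ± 0.23 (adjusted p = 0.0669).

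TUG1 had 1 call in all the comparisons. Its probe set with the highest level and the largest change, 222244_s_at, read 11.17, 11.46 and 11.06 with A13, 11.10, 11.38 and 11.15 with JAG1-Fc beads, 11.24, 11.32 and 11.22 with Fc beads, 11.27, 11.39 and 11.23 with control IgG, 11.23, 11.39 and 11.40 with DAPT, and 11.53, 11.15 and 11.63 with DMSO. All 6 groups overlapped. DAPT against DMSO was -0.10 ± 0.12 (95% interval -0.34 to 0.15). The single TUG1 probe set called in any comparison was 228397_at with control IgG against DMSO (-0.40 ± 0.13, adjusted p = 0.0337), with 7.35, 7.75 and 7.78 in control IgG and 8.15, 7.68 and 8.25 in DMSO, so that the groups overlapped at DMSO array 2. The call was lost with 3 of the 6 arrays left out in turn. In the antagonism experiment 222244_s_at read 11.82 and 11.80 with A4, 12.05, 12.26 and 11.91 with DAPT, and 11.62, 11.65 and 11.68 with control IgG. The 3 groups did not overlap, though the share of the array that separates in this way was not counted. DAPT was 0.42 ± 0.09 above control IgG (95% interval 0.21 to 0.63), but the adjusted p was 0.205.

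KCNQ1OT1 had 0 calls among its 5 probe sets in any comparison. The probe set with the highest level, 243435_at, read 8.13, 8.15 and 8.16 with A13, 8.24, 8.0 and 8.21 with JAG1-Fc beads, 7.98, 7.92 and 8.19 with Fc beads, 8.37, 8.0 and 8.23 with control IgG, 7.98, 8.17 and 8.05 with DAPT, and 8.14, 8.28 and 8.15 with DMSO, and the groups overlapped. With control IgG against DMSO the 5 changes lay between -0.04 and 0.14, and the 95% interval at 243435_at was -0.19 to 0.21, which leaves out changes of the size measured for MALAT1. In the antagonism experiment the largest change of the 5, at 204486_at, was -0.22 with A4 against control IgG, with 6.89 and 6.96 in A4, 7.13, 7.06 and 7.02 in DAPT and 7.06, 7.49 and 6.90 in control IgG.

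**Figure D5:**
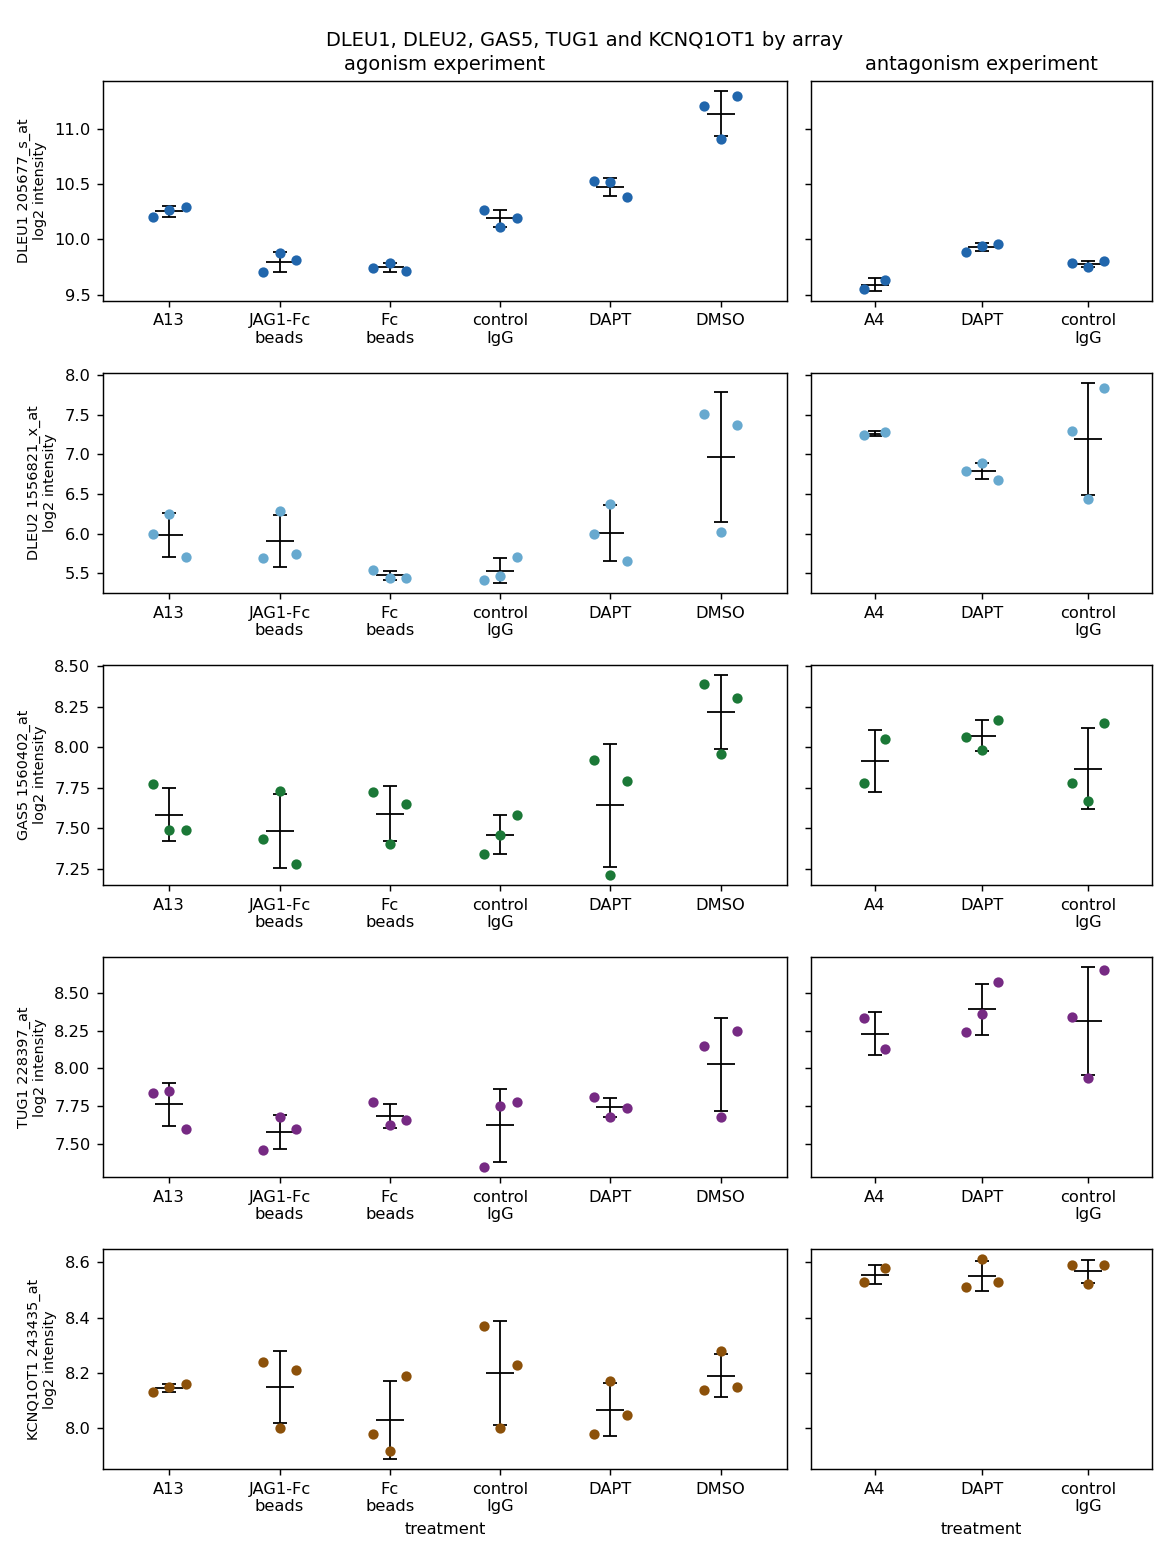
Log2 intensity of 1 probe set each of DLEU1, DLEU2, GAS5, TUG1 and KCNQ1OT1 on each array (points), with the group mean and SD (black), in the agonism (left) and antagonism (right) experiments; each row has its own scale. DLEU1 and GAS5 have all 3 DMSO arrays above every other agonism array, and KCNQ1OT1 has no such gap. The share of all probe sets with such a gap was not counted.

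RNA quality was read from the control probe sets at the 2 ends of GAPDH and ACTB. The GAPDH difference (end minus start, log2) lay between -0.171 and -0.146 in control IgG arrays, between -0.164 and -0.132 in DAPT arrays and between -0.138 and -0.127 in DMSO arrays, so that control IgG and DMSO did not overlap. The ACTB difference lay between 0.12 and 0.19, 0.111 and 0.222, and 0.167 and 0.258 in the same 3 groups, which overlapped. With the GAPDH difference as a covariate, 19 member probe sets were called for control IgG against DMSO, 4 for DAPT against DMSO and 3 for control IgG against DAPT.

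Genes whose profile was most like that of MALAT1 1558678_s_at over the 18 agonism arrays, among 13174 genes above the median level, were FTX (r = 0.929), GOLGA8A (0.927), ZNF587 (0.927), SFXN3 (0.925) and RUSC1-AS1 (0.922). FTX and RUSC1-AS1 are themselves non-coding transcripts. Over the 8 antagonism arrays the same probe sets had r of 0.395, 0.798, 0.682, 0.633 and 0.278 with MALAT1. These points share arrays and treatment groups. The change with control IgG against DMSO was -1.35 for FTX, -1.22 for GOLGA8A, -0.55 for ZNF587, -1.35 for SFXN3 and -1.61 for RUSC1-AS1.

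Related gene groups were read with 1 probe set a gene. The share over all genes at an unadjusted p was not counted. Over 19775 genes, 7.03% were lower and 10.5% higher with DAPT against DMSO, 11.5% lower and 15.7% higher with control IgG against DMSO, 4.07% lower and 2.79% higher with control IgG against DAPT, 7.03% lower and 4.38% higher with A13 against control IgG, and 3.63% lower and 1.72% higher with JAG1-Fc beads against Fc beads. Of 28 other long non-coding RNAs measured, 8 were lower and 2 higher with control IgG against DMSO, with a median change of -0.09 where that of all genes was 0.06. FTX (-1.35 ± 0.17), LINC00342 (-1.21 ± 0.27) and THUMPD3-AS1 (-0.61 ± 0.12) fell, while NORAD, a cytoplasmic RNA that binds Pumilio proteins, rose by 0.40 ± 0.08. With DAPT against DMSO 6 were lower and 0 higher, with control IgG against DAPT 2 lower and 0 higher, and with A13 3 lower and 0 higher.

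Of 15 nuclear speckle and SR splicing factors measured, the proteins that gather where MALAT1 does, 8 were lower and 0 higher with control IgG against DMSO, and the median change was -0.25. They included the kinases CLK1 (-0.63 ± 0.11) and CLK4 (-0.52 ± 0.11), which phosphorylate SR proteins, and TRA2A (-0.58 ± 0.07), a splicing factor. With DAPT against DMSO 6 were lower and 0 higher (median -0.12), with control IgG against DAPT 1 was lower and 0 higher, and with A13 0 were called, with 3 higher and 0 lower at an unadjusted p under 0.05. Of 13 paraspeckle proteins, the partners of NEAT1, 4 were higher and 2 lower with control IgG against DMSO, among them NONO (0.25 ± 0.06) and HNRNPA1 (-0.41 ± 0.08). Those counts were 0 higher and 1 lower with DAPT against DMSO, 1 higher and 0 lower with control IgG against DAPT and 0 with A13, where 1 was higher at an unadjusted p under 0.05. Of the 3 measured genes of MALAT1 and NEAT1 end processing and stability, NUP98, a nuclear pore protein, rose by 0.26 ± 0.07 with control IgG against DMSO. In the other 3 agonism comparisons 0 of the 3 were called, and 2, 1 and 0 were higher at an unadjusted p under 0.05 with DAPT against DMSO, control IgG against DAPT and A13.

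Among the non-coding host genes, calls were lower with DAPT against DMSO and higher in control IgG against DAPT, with A13 and with JAG1-Fc beads. Of 7 other small nucleolar RNA host genes measured, 4 were lower and 0 higher with DAPT against DMSO (median -0.34 where that of all genes was 0.02), and 3 were higher and 0 lower both with control IgG against DAPT (median 0.27) and with A13 against control IgG (median 0.35). EPB41L4A-AS1 changed by -0.43 ± 0.06, 0.52 ± 0.06 and 0.51 ± 0.06 in these 3 comparisons, and SNHG17 by -0.34 ± 0.06, 0.38 ± 0.06 and 0.40 ± 0.06. With JAG1-Fc beads against Fc beads 2 of the 7 were higher and 0 lower (median 0.05), EPB41L4A-AS1 by 0.26 ± 0.06 and SNHG17 by 0.24 ± 0.06. TAF1D, which also encodes a protein of the RNA polymerase I machinery, changed by -0.91 ± 0.14 with DAPT against DMSO and by -1.18 ± 0.14 with control IgG against DMSO, where 2 of the 7 were lower and 1 higher. Of 9 small nucleolar RNP proteins, 3 were lower and 0 higher with DAPT against DMSO, 2 higher and 0 lower with control IgG against DAPT, 3 lower and 0 higher with control IgG against DMSO, 3 higher and 0 lower with A13, and 2 higher and 0 lower with JAG1-Fc beads against Fc beads. NOP58, a core protein of box C/D particles, changed by -0.41 ± 0.07 with DAPT against DMSO, by 0.44 ± 0.07 with A13 and by 0.31 ± 0.07 with JAG1-Fc beads.

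Of 9 protein-coding host genes with terminal oligopyrimidine starts, 0 were called with DAPT against DMSO, where 1 was higher at an unadjusted p under 0.05. With control IgG 3 were higher and 0 lower against DMSO, EEF2 by 0.48 ± 0.09, and 1 was higher against DAPT. With A13 NCL, encoding nucleolin, was the single call (0.40 ± 0.08), as it was with JAG1-Fc beads against Fc beads (0.31 ± 0.08). Of 10 measured genes on the nonsense-mediated decay list, 8 were higher and 0 lower with control IgG against DMSO (median 0.39), 5 higher and 1 lower with DAPT against DMSO, 2 higher and 0 lower with control IgG against DAPT, and 0 higher and 1 lower with A13. The largest changes against DMSO were of GADD45B (0.78 ± 0.10) and GADD45A (0.69 ± 0.09), stress genes whose transcripts are substrates of this decay rather than its factors, and UPF1, the helicase at its centre, rose by 0.43 ± 0.09. Of 21 chromosomal neighbours of the 10 genes, 5 were lower and 4 higher with control IgG against DMSO, 5 lower and 4 higher with DAPT against DMSO, 2 and 2 with control IgG against DAPT, and 3 and 3 with A13. TRIM13, beside DLEU2, fell (-0.57 ± 0.08), and KCNQ1 and CDKN1C, which lie in the imprinted domain of KCNQ1OT1, rose by 0.38 ± 0.07 and 0.51 ± 0.09 with control IgG against DMSO. With JAG1-Fc beads against Fc beads, the other lists had 3 of 28 long non-coding RNAs lower and 0 higher, among them TP53TG1 (-0.52 ± 0.08) and HCP5 (-0.41 ± 0.08), 2 of 21 neighbours lower and 0 higher, and 1 of 10 genes of the decay list higher and 0 lower. For the speckle, paraspeckle and end processing lists 0 were called, where 2 of 15, 3 of 13 and 0 of 3 were higher at an unadjusted p under 0.05.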

How the data were processed

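The 26 samples were each measured on 1 Affymetrix HG-U133 Plus 2.0 array. The authors deposited 1 linear intensity per probe set and array (7.12 to 32597), and the submitters' processing notes list RMA and R 2.10 without a role for either. The sources used here do not say whether the 2 experiments were normalised together. The deposited intensities were converted to log2, since the plan allowed for either scale. Of 54675 probe sets, 62 controls were left out. Of the rest, 41091 carry 1 gene symbol, 1801 several and 11721 none, and 41037 matched RefSeq GRCh38.p14 by gene ID, with 0 symbols changed.

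Groups came from the treatment labels, and the table held 0 columns of other samples. Each experiment was fitted with limma 3.58.1 (R 4.3.3) over all 54613 probe sets, all groups in 1 fit, and over both experiments for the difference of DAPT effects. Adjustment was by Benjamini-Hochberg over the 54613, and a call means an adjusted p under 0.05. The fit was tested on simulated data. The number of arrays limits the precision. Array medians were alike within each experiment, so a shift of most transcripts would not be seen.

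The rule for naming was as follows. Values are given per array for the probe set of each member with the highest mean and with the largest change. Called probe sets are named, at most 1 per gene where more than 6 were called, and any of opposite sign. The genes most like MALAT1 are the 5 with the highest r, 1 probe set (of the highest mean) a gene, above the median level, and from each list up to 4 called genes with the largest change were named. Members, gene lists (other long non-coding RNAs, small nucleolar RNA hosts, nuclear speckle, paraspeckle, end processing, decay, small nucleolar RNP and neighbour genes) and tests were chosen with earlier results of these data known. Alternatives changed the array scaling, the groups in the fit, the variance model, the probe sets tested and an RNA quality covariate, and left out each array in turn. Figures were drawn with matplotlib 3.10.9.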

Additional observations from a re-analysis of the deposited data

Results flagged for a closer look

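The change of DLEU1 (205677_s_at) with DAPT differed between the 2 experiments by a test of the difference itself, 0.809 ± 0.112 on the log2 scale (antagonism minus agonism, limma, adjusted p = 0.001301). DLEU1 on each DAPT array was below each DMSO array in the agonism experiment (-0.66 ± 0.09) and above each control IgG array in the antagonism experiment (0.145 ± 0.066, not called). Such a separation was found in 12.3% of all probe sets in the former, and was not counted over the array in the latter. The difference was no longer called with only the 4 compared groups in the fit (adjusted p = 0.06248). The experiments also differ in time since plating, washout and the control, which cannot be told apart.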

How the results depend on the processing

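The calls of DLEU1 with DAPT and with control IgG, both against DMSO, and the 12 MALAT1 calls with control IgG against DMSO were kept under every alternative that tested them. Over the named probe sets, 390 values stayed on the same side of the threshold, 103 kept their direction but were no longer called, and 0 reversed. The cause of a lost call was not tested. With 11 probe sets called lower with DAPT against DMSO, the count was 4 with the GAPDH covariate and between 1 and 19 with 1 array left out. With 6 called with control IgG against DAPT, it was 10 with only those 2 groups in the fit, 3 with a trended and robust variance, 10 among probe sets above the median level, 3 with the covariate and between 0 and 7 with 1 array left out. With 0 called for A13 against control IgG, the same first 3 alternatives gave 5, 1 and 2, and leaving out 1 array gave between 0 and 3. With 1 called for Fc beads against control IgG, the 2 groups alone and the covariate each gave 0, and leaving out 1 array gave between 0 and 1. For DAPT against control IgG leaving out 1 array gave between 0 and 3. With 1 called for the difference of DAPT effects, repeated quantile normalisation gave 3, only the compared groups in the fit 0, trended and robust variance 4, probe sets above the median level 4, and leaving out 1 array between 1 and 12. The count with control IgG against DMSO stayed between 17 and 20 with 1 array left out. Where 1 A4 array was left out, the fit gave the lone array the spread of the remaining groups. The table holds no detection calls, so signal over background could not be judged.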

Other observations

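A further 21 probe sets are annotated to a listed gene together with other genes, and are assigned to none of them. Those named here were chosen after their values were seen. Of 9 annotated jointly to NEAT1 and MIR612, 7 were called lower with control IgG against DMSO (changes between -1.98 and -0.05 over the 9), 2 with DAPT against DMSO and 3 with control IgG against DAPT. Over the whole array 11.9%, 6.65% and 2.99% were lower in these 3 comparisons. The 9 share the same arrays, so their calls are not separate observations. Probe set 225239_at changed by -1.98 ± 0.31 with control IgG against DMSO and by -1.19 ± 0.31 with control IgG against DAPT, and 227062_at by -1.79 ± 0.20 and -1.04 ± 0.20. With A13 against control IgG 0 of the 9 were called, with changes between -0.06 and 0.49. By limma 0 of the 9 were called in the antagonism comparisons. There 225239_at was 0.72 ± 0.20 and 234989_at 0.75 ± 0.18 with DAPT against control IgG (adjusted p = 0.293 and 0.238), each DAPT array being above each control IgG array. The share of all probe sets that separate in this way was not counted.

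Probe sets that join a host gene with its small nucleolar RNAs did not all give the same calls. Those annotated to GAS5 and small nucleolar RNA genes were all 4 called lower with DAPT against DMSO, 224741_x_at by -0.32 ± 0.06 and 227517_s_at by -1.18 ± 0.15. In that comparison 6.65% of the array was lower. With control IgG against DMSO 2 of the 4 were called lower, with changes between -1.41 and 0.01. Means of 224741_x_at were 14.02 with control IgG and 14.05 with DMSO, and those of 227517_s_at 9.84 and 11.25. With control IgG against DAPT 224741_x_at rose by 0.29 ± 0.06, while 227517_s_at had a value of -0.225 ± 0.154 that was not called. With A13 against control IgG 227517_s_at rose by 0.61 ± 0.15, and 224741_x_at had 0.18 ± 0.06, not called. Of the SNHG12 probe sets, annotated with small nucleolar RNA genes, 223774_at changed by -0.58 ± 0.13 with DAPT against DMSO and by 0.63 ± 0.13 with control IgG against DAPT, and was at 0.05 ± 0.13 with control IgG against DMSO. Another, 228990_at, changed by -0.89 ± 0.15 with DAPT and by -1.14 ± 0.15 with control IgG, both against DMSO. A13 against control IgG raised 223774_at by 0.80 ± 0.13 and 223773_s_at by 0.67 ± 0.12. The probe set of SNHG1 and its small RNAs, 224610_at, changed by -0.53 ± 0.07 with DAPT against DMSO, by 0.48 ± 0.07 with control IgG against DAPT and by 0.38 ± 0.07 with A13. That of SNHG3 and SNORA73A, 215011_at, changed by -0.84 ± 0.13 with DAPT and by -0.95 ± 0.13 with control IgG, both against DMSO. The difference of the DAPT effects (antagonism minus agonism) was called for 5 of the 21, all above 0: 227062_at (0.99 ± 0.26), 215011_at (0.88 ± 0.17), 228990_at (0.77 ± 0.20), 227517_s_at (0.90 ± 0.20) and 228238_at of GAS5 (0.80 ± 0.20), where 1.11% of the array was higher. Which transcript each of these probe sets reads was not tested.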
